A study of Mus musculus with 44 samples.

Results

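The genes described here are 10 genes of the major histocompatibility complex (MHC) and of antigen presentation, followed in mouse kidney with and without the clock gene Bmal1. They were chosen by name: H2-K1, H2-D1, H2-T23, B2m and Tap1 of the class I pathway, and H2-Aa, H2-Ab1, H2-Eb1, Cd74 and Ciita of the class II pathway. All 10 were found among the 24733 genes with a value above 0 in any library, as 37 transcripts whose values were summed per gene. Of the 10, 9 passed the filter for testing, a mean of at least 1 TPM over all libraries (TPM is transcript abundance corrected for transcript length and library total), as did 12874 genes in all. Ciita, with a mean of 0.695 TPM, did not pass and was tested only in a fit with no filter.

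The study followed gene expression through the day in kidney by sequencing polyA-selected RNA. Kidneys of 129SV mice aged 8 to 12 weeks, all under night-restricted feeding, were sampled at 6 Zeitgeber times (ZT, hours in the light cycle) 4 h apart. Wild-type mice (WT) were compared with mice lacking Bmal1 (KO, labelled as Bmal knockout), a core activator of the circadian clock encoded by Arntl, and every group of genotype and time had 2 libraries, lettered A and B. The labels do not say whether the letters mark a batch or whether each library came from 1 animal, so the p-values measure the spread between these libraries. The library labelled KO ZT4 A stood apart from the other 11 KO libraries: the clock repressor Cry1 was at 1.04 TPM there against 11.5 to 17.8 in the others, and at 0.845 and 1.20 in WT at ZT4. Values include this library unless stated otherwise. Arntl itself was at 4.19 to 6.20 TPM in the other KO libraries and at 0.295 to 12.9 in WT, where it cycles, so its summed level does not separate the genotypes. Mitochondrial transcripts made up 37.99% to 42.5% of the TPM of a WT library and 32.3% to 40.3% of a KO library, and both KO libraries were below both WT libraries at 6 of 6 times.

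Class I molecules sit on nearly all nucleated cells. Their heavy chain pairs with the light chain B2m and shows peptides cut in the cytosol and pumped into the endoplasmic reticulum by the transporter of which Tap1 is a subunit. Class II molecules are pairs of an alpha and a beta chain, made mainly by dendritic cells, macrophages and B cells, which load them with peptides from ingested material; the invariant chain Cd74 guides them, and Ciita is the switch that turns their genes on. In kidney, class II is known mostly from the dendritic cells and macrophages between the tubules, so kidney RNA reads those cells together with the tubules. In such bulk samples fewer cells of a type and less RNA per cell cannot be told apart.

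The DNA before the start sites is shown as background: class I and class II promoters carry related boxes that shared factors bind. Whether these boxes bear on the levels below was not tested. The 200 bases before the annotated start are printed 5′ to 3′ on the gene's own strand for 5 of the 7 members with a window in the RefSeq promoter table (build GRCm38.p6): H2-K1 (chr17:34000348-34000547, minus strand), H2-D1 (chr17:35262894-35263093, plus strand), B2m (chr2:122147487-122147686, plus strand), H2-Aa (chr17:34287824-34288023, minus strand) and H2-Eb1 (chr17:34305667-34305866, plus strand). Capitals mark exact matches, on either strand, to 6 short motifs: the CCAAT box, the cyclic AMP element core TGACG, 2 overlapping spellings of an interferon response element (GAANNGAAA and AAANNGAAA), the kappa B site GGGATTCCC and the E-box CACGTG that clock activators bind.
H2-K1: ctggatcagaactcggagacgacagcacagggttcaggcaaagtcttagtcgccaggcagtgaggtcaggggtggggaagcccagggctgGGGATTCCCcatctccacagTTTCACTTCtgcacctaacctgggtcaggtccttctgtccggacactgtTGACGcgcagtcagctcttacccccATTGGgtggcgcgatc
H2-D1: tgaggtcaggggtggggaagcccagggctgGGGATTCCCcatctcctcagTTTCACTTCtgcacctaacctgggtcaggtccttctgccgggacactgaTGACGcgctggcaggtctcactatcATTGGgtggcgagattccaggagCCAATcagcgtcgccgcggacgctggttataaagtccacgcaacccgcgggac
B2m: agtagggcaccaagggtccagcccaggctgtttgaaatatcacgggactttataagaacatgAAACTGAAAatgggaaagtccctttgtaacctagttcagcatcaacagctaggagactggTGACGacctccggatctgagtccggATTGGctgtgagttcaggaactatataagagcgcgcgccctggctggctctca
H2-Aa: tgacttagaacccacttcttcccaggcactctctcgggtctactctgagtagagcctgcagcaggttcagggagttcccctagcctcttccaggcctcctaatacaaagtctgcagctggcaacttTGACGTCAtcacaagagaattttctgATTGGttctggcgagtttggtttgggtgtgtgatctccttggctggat
H2-Eb1: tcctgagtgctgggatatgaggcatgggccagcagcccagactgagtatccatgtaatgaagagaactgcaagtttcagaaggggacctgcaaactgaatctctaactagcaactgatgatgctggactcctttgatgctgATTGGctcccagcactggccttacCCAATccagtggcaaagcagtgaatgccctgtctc
H2-K1 and H2-D1 carried the same set in the same order: the kappa B site, then GAANNGAAA on the other strand, then TGACG and then CCAAT on the other strand, with a further CCAAT nearer the start in H2-D1. B2m held AAANNGAAA, TGACG and CCAAT but no exact GGGATTCCC. H2-Aa held TGACG in both directions, as the overlapping palindrome TGACGTCA, and 1 CCAAT on the other strand. H2-Eb1 held only CCAAT, once on each strand. CACGTG was in none of the 7 windows searched. Among 32843 windows of the same length with no unread base, GGGATTCCC was in 70 (0.213%), GAANNGAAA in 5%, AAANNGAAA in 7.22%, CACGTG in 5.26%, TGACG in 15.7% and CCAAT in 29.4%. A match is a description of the letters and not evidence that a factor binds.

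The members spanned a wide range in TPM, and their levels can be set side by side because TPM is per length. In WT the mean level was highest for B2m, at 264 TPM ± 32.4 (SD, n = 12 libraries over 6 times). Below it came Cd74 at 156 ± 33.1, H2-K1 at 121 ± 21.5 and H2-D1 at 121 ± 16.7. The class II chains followed with H2-Aa at 75.1 ± 16.05, H2-Ab1 at 67.4 ± 14.2 and H2-Eb1 at 65.1 ± 13.9, and then the nonclassical class I chain H2-T23 at 53.0 ± 4.58. Tap1 at 5.31 ± 1.51 and Ciita at 0.795 ± 0.216 were far lower. B2m, Tap1 and Ciita each lay clear of their neighbours in this order, while the ranges from Cd74 to H2-T23 overlapped from each gene to the next. In KO the order of the means was B2m, H2-K1, H2-D1, Cd74, H2-Aa, H2-T23, H2-Eb1, H2-Ab1, Tap1 and Ciita. On the mean Cd74 stood below the classical class I heavy chains and H2-T23 above 2 of the class II chains, with overlapping ranges. In KO Cd74 was at 120 ± 21.2 and H2-D1 at 121 ± 16.7, and their medians, 120 and 117, had the other order. H2-T23 was at 53.1 ± 5.08, H2-Eb1 at 51.0 ± 7.69 and H2-Ab1 at 49.5 ± 7.16.

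Class II genes were lower in KO. Of the 4 class II members tested, all 4 fell, by 0.34 to 0.43 log2 units, and each was lower in KO at 6 of 6 times. Over all genes tested, 10% were lower in KO and 50.9% higher, with a median change of 0.148 log2 units, so these genes moved against the bulk of the table. H2-Ab1 (chr17:34257689-34269419, plus strand), the beta chain of the I-A molecule, ranged from 50.4 TPM over a median of 65.8 to 95.4 in the 12 WT libraries, and from 35.8 over 51.1 to 58.0 in the 12 KO libraries. The groups overlapped, but 4 of the 6 times had both KO libraries below both WT libraries. Its change was -0.43 log2 units (SE 0.10, adjusted p 0.00138, limma with Benjamini-Hochberg adjustment over all genes tested). H2-Aa (chr17:34282744-34287823, minus strand), the alpha chain that pairs with it, ranged from 54.8 over 72.0 to 104 TPM in WT and from 41.8 over 55.4 to 70.3 in KO. Its WT high came from ZT12 B and its KO low from the KO library of the same time and letter. It fell by 0.36 log2 units (SE 0.10, limma adjusted p 0.00495).

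H2-Eb1 (chr17:34305867-34316674, plus strand) encodes the beta chain of the I-E molecule. It ranged from 47.5 over 62.2 to 88.0 TPM in WT and from 35.5 over 49.6 to 62.6 in KO, and fell by 0.34 log2 units (SE 0.10, limma adjusted p 0.00822). The pseudogene entry for its alpha chain partner, H2-Ea-ps, was listed at 0 in all 24 libraries. Cd74 (chr18:60803848-60812652, plus strand), the invariant chain that occupies the groove until peptide arrives, ranged from 115 over 150 to 220 TPM in WT and from 80.6 over 120 to 160 in KO. Both KO libraries were below both WT libraries at 4 of 6 times. It fell by 0.37 log2 units (SE 0.11, limma adjusted p 0.00737). Ciita (chr16:10480059-10528418, plus strand), the master activator of these genes, ranged from 0.587 over 0.730 to 1.33 TPM in WT and from 0.387 over 0.544 to 0.894 in KO. In the fit with no filter it was lower by 0.37 log2 units in KO (SE 0.13, limma adjusted p 0.0308, lower at 6 of 6 times), and it missed the threshold when any of 5 single libraries was left out (WT ZT8 B, WT ZT12 B, WT ZT20 B, KO ZT12 B or KO ZT16 B, adjusted p 0.0512 to 0.062). Leaving out each of the 24 libraries in turn ended the call for none of the other 4, the library labelled KO ZT4 A included.

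**Figure D1:**
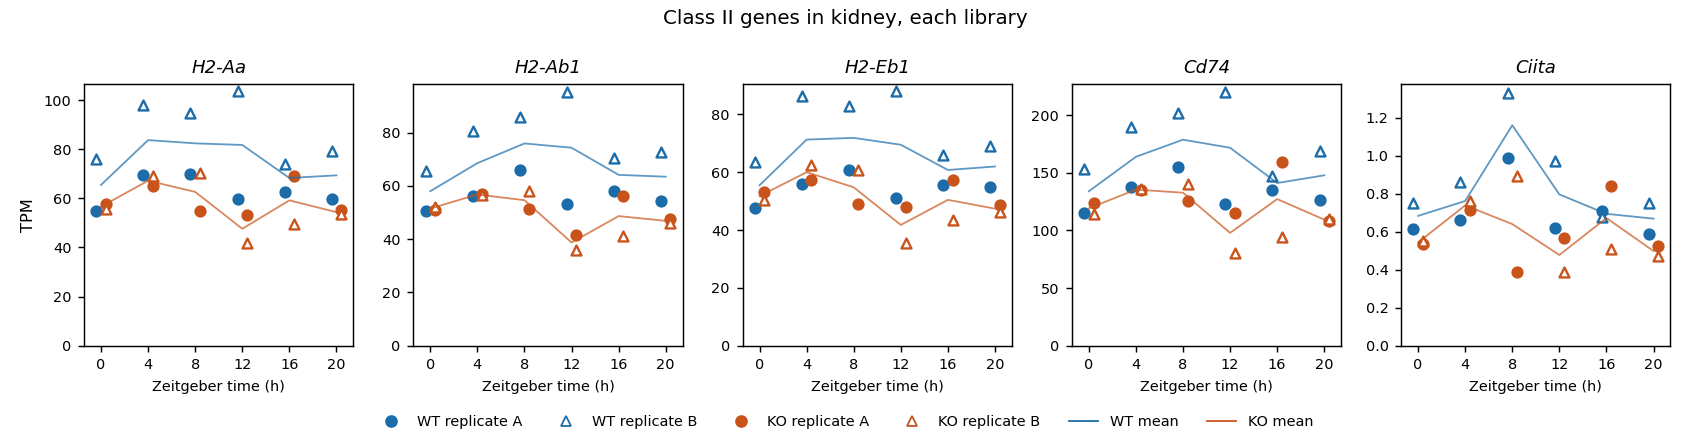
Class II genes in each kidney library: TPM (vertical axis, from 0) against Zeitgeber time in hours, with WT in blue, KO in orange, replicate A as filled circles, replicate B as open triangles and lines through the mean of 2 libraries. The open blue triangles (WT B) lie above the other series at most times, and the filled blue circles (WT A) lie near the KO values.

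With the deposited values, the class II difference was seen in one replicate letter and not detected in the other. The split by letter was not fitted under other scalings. On the deposited scale the median gene changed by 0.148 log2 units in KO within each letter. Among the 12 B libraries, H2-Ab1 was lower in KO by 0.71 log2 units (SE 0.10, limma adjusted p 9.07e-05), and Cd74, H2-Aa and H2-Eb1 by 0.69, 0.64 and 0.62. In the 12 A libraries the change was -0.15 for H2-Ab1, -0.08 for H2-Aa, -0.06 for H2-Eb1 and -0.05 for Cd74, and none passed (adjusted p 0.23 to 0.738). Over all genes, 7.53% were lower and 36.5% higher in the B libraries, and 6.95% lower and 35.5% higher in the A libraries. The test of the difference between letters found 0 genes past the adjusted threshold (691 of 12874, or 5.37%, at an unadjusted p under 0.05). For the 4 class II genes it gave unadjusted p-values of 0.000937 to 0.00124 and adjusted p-values of 0.339 to 0.36, with differences of -0.55 to -0.64 log2 units. The letters differed within WT. Cd74 was at 115 to 155 TPM in the 6 WT A libraries and at 147 to 220 in the 6 WT B libraries, against 109 to 160 in KO A and 80.6 to 140 in KO B. H2-Ab1 was at 50.4 to 66.0 TPM in WT A, 65.5 to 95.4 in WT B, 41.7 to 57.1 in KO A and 35.8 to 58.0 in KO B. WT B was above WT A at 6 of 6 times for 8 of the 10 members and at 5 of 6 for B2m and Ciita, where 5.27% of all genes tested had B above A in WT at all 6 times. In KO, B was above A at 2 or 3 of 6 times for each member, and at all 6 for 2.42% of genes. No gene passed for B minus A in WT (0 of 12874, limma adjusted, 670 or 5.2% unadjusted), and the class II genes had changes of 0.44 to 0.48 log2 units with adjusted p-values of 0.132 to 0.288.

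**Figure D2:**
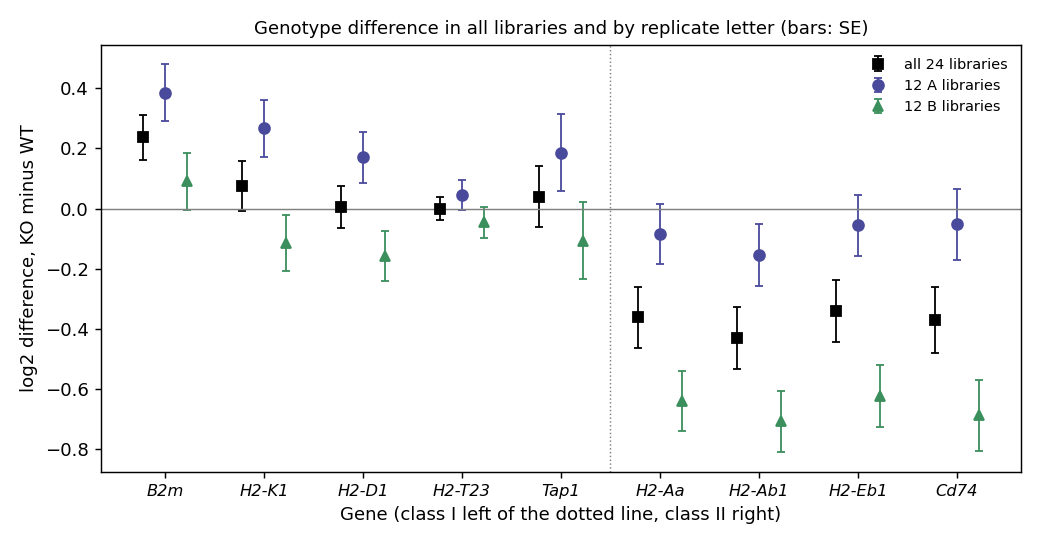
Genotype difference (log2, KO minus WT, vertical axis) for the 9 tested members in all 24 libraries (squares), the 12 A libraries (circles) and the 12 B libraries (triangles), with bars of 1 SE. For each gene the B value is below the A value, and for the class II genes on the right the B values lie between -0.62 and -0.71 while the A values lie between -0.05 and -0.15.

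Some of the markers of myeloid cells moved with these genes. Of 14 tested myeloid markers, 7 were lower in KO and 0 higher, beside 10% and 50.9% of all genes. Their median change was -0.33 log2 units. Under median-of-ratios scaling 10 were lower, beside 22.6% of all genes. Without the library labelled KO ZT4 A 6 were lower, beside 10.3% of all genes. Csf1r, the receptor for the macrophage growth factor, changed by -0.33 (SE 0.06, limma adjusted p 9.01e-05), and Adgre1, the macrophage surface protein F4/80, by -0.54 (SE 0.14). C1qa and C1qb, the complement chains made by macrophages, changed by -0.44 and -0.42. The 7 tested markers that did not pass, Ptprc, Cd68, Cx3cr1, Lyz2, Fcer1g, Laptm5 and Cd53, changed by -0.07 (Fcer1g) to -0.32 (Cd53). By letter, 1 of the 14 was lower in the A libraries and 9 in the B libraries, beside 6.95% and 7.53% of all genes. The sum over all 20 listed myeloid markers was 90.2 to 111 TPM in WT A, 107 to 203 in WT B, 84.8 to 110 in KO A and 77.2 to 118 in KO B. Of the 20, 6 had a mean under 1 TPM and were not tested: Itgax, Itgam, Flt3, Clec9a, Xcr1 and Cd209a. None of the 20 was at 0 in every library. The ratio of Cd74 to this sum overlapped between genotypes, with 1.09 to 1.46 (median 1.31) in WT and 1.04 to 1.56 (median 1.18) in KO. For H2-Eb1 the ratio was 0.433 to 0.615 (median 0.544) in WT and 0.436 to 0.576 (median 0.530) in KO, and both genotypes overlapped over most of their range. For H2-Ab1 it was 0.470 to 0.656 (median 0.551) in WT and 0.378 to 0.604 (median 0.504) in KO. The medians in WT and KO were 0.6405 and 0.597 for H2-Aa and 0.00636 and 0.00566 for Ciita. Each class II member thus had the lower median in KO over both letters together, with overlap. Within each letter the medians had the same order, except for H2-Eb1 in the A libraries, at 0.543 in WT and 0.545 in KO.

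B cell markers separated the letters within WT. The sum over 8 B cell markers, nearly all of it the antibody light chain Igkc, was 24.05 to 173 TPM in WT A and 311 to 1378 in WT B with no overlap, against 20.5 to 375 in KO A and 21.1 to 107 in KO B. Of the 8, 6 had a mean under 1 TPM, among them the defining B cell genes Ms4a1, Cd79a and Pax5. Igkc was lower in KO by 2.06 log2 units (SE 0.78, limma adjusted p 0.0298), and Ighm, the other tested B cell marker, did not pass. By letter Igkc changed by 0.01 in the A libraries (limma adjusted p 0.995) and by -4.13 in the B libraries (adjusted p 0.00128). Ighm changed by -0.10 in the A libraries (adjusted p 0.895) and by -1.73 in the B libraries (adjusted p 0.0175). T and NK cell markers had 0 of 2 tested past the threshold, and their sum was 4.60 to 11.1 TPM in WT and 4.13 to 10.2 in KO. Endothelial markers had 5 of 8 higher and 0 lower, turning to 2 and 1 under median-of-ratios scaling, and tubule and podocyte markers 7 of 10 higher and 1 lower, or 7 and 2 under that scaling. Over all genes 50.9% were higher, or 21.5% under that scaling. The part of the myeloid and B cell markers in the class II result was not tested.

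Class II genes were also set against class I genes within the same library. A ratio within a library does not depend on how libraries are scaled. Cd74 over B2m was 0.502 to 0.707 (median 0.580) in WT and 0.300 to 0.556 (median 0.379) in KO. The KO high was the library labelled KO ZT4 A, and the other 11 KO libraries reached 0.425, below every WT library. By letter the ratio was 0.502 to 0.643 in WT A against 0.353 to 0.556 in KO A, and 0.533 to 0.707 in WT B against 0.300 to 0.425 in KO B. Unlike the ratio, the change of each gene depends on how libraries are scaled. With the deposited values, where the median gene of the A libraries changed by 0.148 log2 units, Cd74 changed there by -0.05 and B2m by 0.39. In the B libraries Cd74 changed by -0.69 and B2m by 0.09. H2-Ab1 over H2-K1 was 0.487 to 0.597 in WT and 0.285 to 0.584 in KO, or up to 0.476 without that library. In the A libraries H2-Eb1 over H2-T23 overlapped, with 0.973 to 1.15 (median 1.09) in WT and 0.768 to 1.13 (median 1.08) in KO. All 25 ratios of a class II to a class I member had a lower median in KO. No single member had all KO libraries below or above all WT libraries, as 0.249% and 1.42% of all genes did. None of the 25 ratios separated the genotypes fully with all libraries, and 6 did without the library labelled KO ZT4 A. Leaving out that library also raised the shares of single genes that separated fully, to 1.77% lower and 8.34% higher in KO. The matching share over ratios of other genes was not computed. These ratios were chosen after the values were seen and are a description. Within a class, H2-Aa over H2-Ab1 lay between 1.05 and 1.28 over all 24 libraries, H2-K1 over H2-D1 between 0.915 and 1.12 and H2-K1 over B2m between 0.350 and 0.537.

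**Figure D3:**
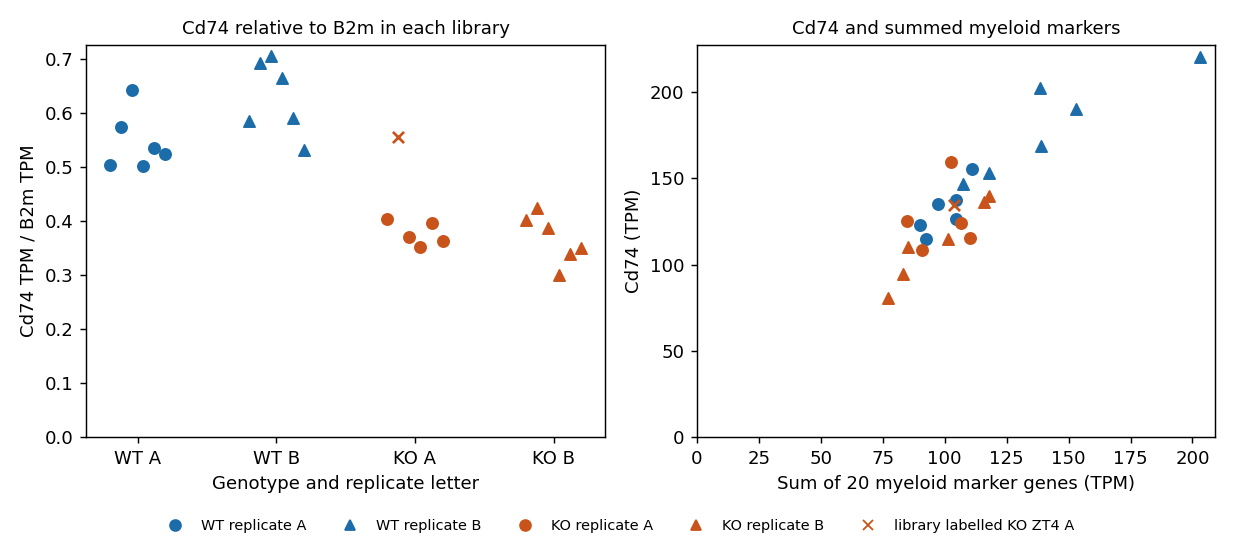
Left, Cd74 TPM divided by B2m TPM in each library (axis from 0) by genotype and replicate letter, and right, Cd74 TPM against the summed TPM of 20 myeloid markers, with WT in blue, KO in orange and a cross for the library labelled KO ZT4 A. On the left the KO libraries other than the cross lie at or under 0.425 and the WT libraries at or above 0.502, and on the right both genotypes follow the same rising cloud, with the highest values in WT B.

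Of 9 tested genes that load class II or cut its peptides, 4 were lower and 3 higher in KO, beside 10% and 50.9% of all genes. By letter, 1 was lower in the A libraries and 4 in the B libraries, beside 6.95% and 7.53% of all genes. March1, a ligase that removes class II from the cell surface, changed by -0.48 log2 units (SE 0.11, limma adjusted p 0.00147), and Ctss, the cathepsin that trims the invariant chain in immune cells, by -0.51 (SE 0.18, adjusted p 0.0184). March1 changed by -0.47 in the A libraries (limma adjusted p 0.022) and by -0.48 in the B libraries (adjusted p 0.0197). Ctss changed by -0.05 in the A libraries (limma adjusted p 0.839) and by -0.96 in the B libraries (adjusted p 0.00105). The other two lower genes were H2-DMa at -0.27 and H2-DMb2 at -0.39, chains of the peptide exchanger, which were named after their values were seen. Ctsb changed by 0.28 (SE 0.04), Lgmn by 0.20 (SE 0.04) and Ctsl, also named after its values were seen, by 0.23 (SE 0.05): all 3 are lysosomal proteases of many cell types. H2-DMb1 (-0.03) and the thiol reductase Ifi30 (0.08) did not pass. With libraries scaled by median of ratios (which puts the median gene near 0) the counts were 4 lower and 1 higher, beside 22.6% and 21.5% of all genes.

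Of the 5 class I members, 1 was higher in KO and 0 lower. B2m (chr2:122147686-122153083, plus strand), the light chain of every class I molecule, ranged from 228 over 251 to 331 TPM in WT and from 242 over 310 to 401.4 in KO. It was higher in KO at 6 of 6 times on the mean, with both KO libraries above both WT libraries at 3. Its change was 0.24 log2 units (SE 0.07, limma adjusted p 0.00996), beside 50.9% of all genes higher in KO. The change was 0.39 in the A libraries (limma adjusted p 0.00424) and 0.09 in the B libraries (adjusted p 0.454). The lowest KO value was the library labelled KO ZT4 A, and the other 11 started at 268 TPM. Under median-of-ratios scaling, which moves the median gene from 0.148 to -0.00173, B2m changed by 0.09 and did not pass (adjusted p 0.342), and the class II genes changed by -0.49 to -0.58, beside 22.6% of all genes lower and 21.5% higher. With mitochondrial genes removed, B2m changed by 0.17 and missed the threshold (adjusted p 0.0571). Calls over all genes split as 83.6% higher with the deposited values, 48.7% under median-of-ratios scaling and 73.3% with mitochondrial genes removed.

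H2-K1 (chr17:33996017-34000347, minus strand), a classical heavy chain, ranged from 92.0 over 119 to 164 TPM in WT and from 97.7 over 121 to 162 in KO. H2-D1 (chr17:35262730-35267499, plus strand), the other classical heavy chain, ranged from 95.7 over 117 to 157 in WT and from 103 over 117 to 157 in KO. The genotypes overlapped for both. Their lowest KO values were the library labelled KO ZT4 A, and the other 11 started at 107 and 105 TPM. Their changes were 0.08 (SE 0.08, limma adjusted p 0.437) and 0.01 (SE 0.07, adjusted p 0.947) log2 units, turning to -0.08 and -0.15 under median-of-ratios scaling without passing. In the A libraries H2-K1 was higher in KO by 0.27 log2 units (SE 0.09, limma adjusted p 0.0304), and in the B libraries its change was -0.11 (adjusted p 0.334). H2-T23 (chr17:36029773-36032855, minus strand), the mouse Qa-1 chain that NK cells read, ranged from 47.7 over 52.0 to 62.0 TPM in WT and from 46.3 over 51.8 to 63.6 in KO, with a change of 0.00 (SE 0.04, adjusted p 0.996). Under median-of-ratios scaling H2-T23 changed by -0.15 (limma adjusted p 0.00807). Tap1 (chr17:34187553-34197225, plus strand) ranged from 3.44 over 5.03 to 8.23 TPM in WT and from 3.65 over 4.93 to 8.13 in KO, with a change of 0.04 (SE 0.10, adjusted p 0.746) that turned to -0.11 under median-of-ratios scaling.

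**Figure D4:**
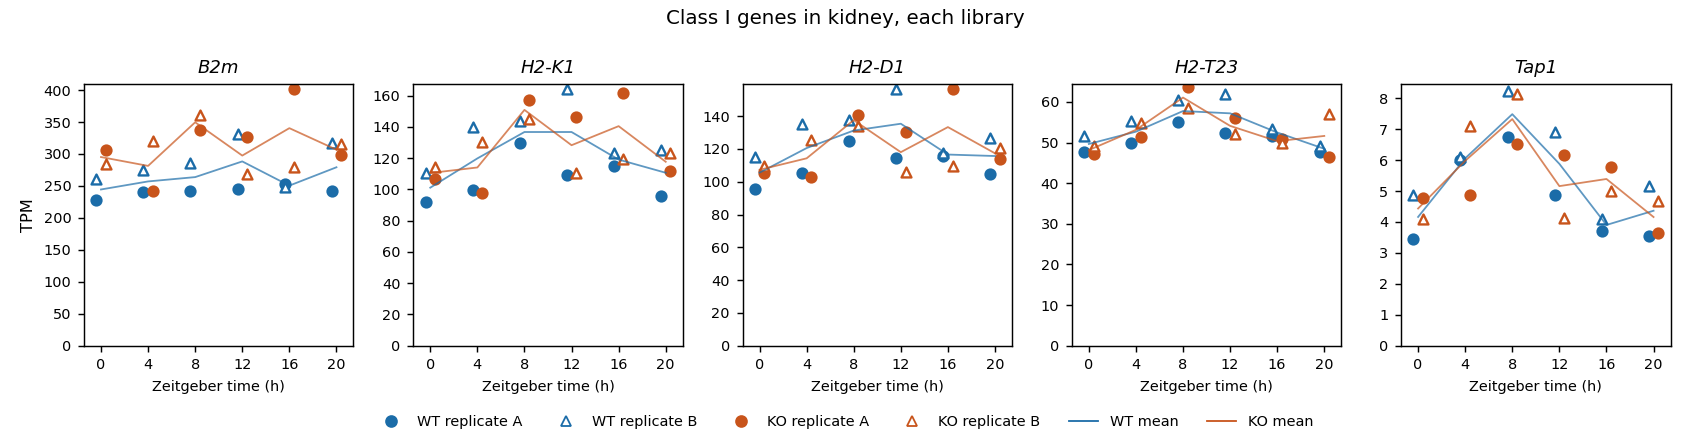
Class I genes in each kidney library: TPM (vertical axis, from 0) against Zeitgeber time in hours, with the same colours and symbols for genotype and letter as for the class II genes. B2m lies higher in KO on the mean at each time, H2-K1, H2-D1 and H2-T23 overlap, and Tap1 is highest at ZT8 in both genotypes.

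Among 12 other tested class I heavy chains and class I-like genes, 5 were higher and 2 lower in KO, or 4 and 2 under median-of-ratios scaling, beside 50.9% and 10% of all genes with the deposited values. Hfe, a class I-like regulator of iron uptake, changed by 0.53 log2 units (SE 0.08, limma adjusted p 1.18e-05), and Mr1, which shows vitamin metabolites to MAIT cells, by 0.43 (SE 0.07). The other 3 higher genes were H2-Q2 (1.001), H2-Q6 (0.54) and H2-Q7 (0.33), related genes whose reads kallisto may split between them. They were named after their values were seen. H2-T22 changed by -0.24 (SE 0.05, adjusted p 0.000323) and Azgp1, a secreted class I-like protein, by -1.32 (SE 0.49, adjusted p 0.0285). Of 12 genes that cut, trim or load class I peptides, 4 were higher and 0 lower, turning to 1 higher and 4 lower under median-of-ratios scaling, where all genes turned from 50.9% higher to 21.5%. The proteasome activator subunits Psme1 and Psme2 changed by 0.40 (SE 0.06) and 0.23 (SE 0.05), the trimming peptidase Erap1 by 0.14 (SE 0.05) and the immunoproteasome subunit Psmb10 by 0.19 (SE 0.07). The immunoproteasome subunits Psmb8 (-0.05) and Psmb9 (-0.11), encoded beside Tap1, did not pass.

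Of 13 tested regulators of MHC genes other than Ciita, 5 were higher in KO and 0 lower, beside 50.9% and 10% of all genes, turning to 2 higher and 2 lower under median-of-ratios scaling, and 1 was lower without the library labelled KO ZT4 A. Nfyc and Nfyb, subunits of the factor that binds CCAAT boxes, changed by 0.33 (SE 0.05) and 0.26 (SE 0.06) log2 units. Rfxank, part of the RFX complex of MHC promoters, changed by 0.25 (SE 0.05), Creb1, which binds TGACG elements, by 0.24 (SE 0.07), and Rfxap, named after its values were seen, by 0.23. Nlrc5, the activator of class I genes, changed by -0.04 (SE 0.15) and Irf1 by -0.08 (SE 0.06), and neither passed. Of 19 tested interferon response genes 5 were higher and 0 lower, with a median of 0.16 beside 0.148 over all genes, of which 50.9% were higher. The count turned to 1 higher and 2 lower under median-of-ratios scaling and to 6 higher without the library labelled KO ZT4 A. Ifi44 changed by 0.45 (SE 0.10), Ifi27 by 0.32 (SE 0.08), Gbp3 by 0.44 (SE 0.14), Gbp7 by 0.26 (SE 0.10) and Irf9, named after its values were seen, by 0.21.

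Of the members, 1 of the 9 tested was rhythmic in WT. A 24-h cosine fitted to Tap1 swung by 0.90 log2 units from trough to peak (SE 0.21), peaking at 7.67 h (limma adjusted p 0.0158), where 13.7% of all genes were rhythmic in WT. In WT it was at 6.74 and 8.23 TPM at ZT8 and at 3.70 and 4.10 at ZT16. Both ZT8 libraries were above both ZT16 libraries. The call was lost without WT ZT8 B (adjusted p 0.0688) and with time as a 6-level factor. In KO the fitted swing of Tap1 was 0.64 (SE 0.21) with a peak at 8.22 h, at an unadjusted p of 0.0181 and an adjusted p of 0.144. No member was rhythmic in KO (3.64% of all genes), and none differed in rhythm between genotypes (0.629% of all genes). At an unadjusted limma p under 0.05, 2 members were rhythmic in KO, beside 21.1% of all genes. At that level 0 members differed in rhythm between genotypes, beside 13.7% of all genes. Tap1's test of that difference gave an adjusted p of 0.851.

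H2-T23 had a small fitted rhythm in each genotype, 0.26 log2 units (SE 0.08) peaking at 9.71 h in WT and 0.25 (SE 0.08) peaking at 8.79 h in KO, with limma adjusted p-values of 0.0744 and 0.139. It passed in WT in the fit of WT alone (adjusted p 0.0384) and with mitochondrial genes removed (0.00979). The fitted swing of H2-K1 was 0.42 in WT and 0.36 in KO (SE 0.17 each) and that of H2-D1 0.31 and 0.23 (SE 0.14 each), and neither passed. B2m had 0.12 and 0.16 (SE 0.15 each). The class II genes had fitted swings of 0.30 to 0.36 in WT and 0.29 to 0.39 in KO with an SE of 0.19 to 0.22, so no daily rhythm was detectable in them. Of the class I loading list, 3 chaperones were rhythmic in both genotypes: Calr, Canx and Pdia3 peaked between 22.04 and 22.71 h in WT and KO, and they were named after their values were seen.

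At single times, 3 members passed, all lower in KO at ZT12: H2-Ab1 by -0.88 log2 units (SE 0.25, limma adjusted p 0.0147), H2-Aa by -0.74 (SE 0.27, adjusted p 0.042) and Cd74 by -0.77 (SE 0.29, adjusted p 0.0456). H2-Eb1 missed the threshold there at -0.70 (adjusted p 0.0529). At ZT12, 6.24% of all genes were lower and 31.9% higher in KO. H2-Ab1 was at 53.3 and 95.4 TPM in the WT libraries of that time and at 41.7 and 35.8 in KO. The WT pair was wide apart, and 0 members passed without WT ZT12 B or without KO ZT12 B. At ZT4 no gene of the whole table passed (1637 unadjusted), the time of the library labelled KO ZT4 A.

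The invariant chain's isoforms kept their proportion. The 8-exon transcript made 79.0% ± 2.04 of Cd74 in WT and 79.7% ± 1.82 in KO (SD, n = 12 each), and the 9-exon transcript made 20.8% ± 2.08 and 20.1% ± 1.74. Both differences were under 1 SD. H2-K1 came mainly from 1 transcript, with 75.2% ± 1.97 in WT and 75.4% ± 1.27 in KO. Tap1 was spread over 7 listed transcripts, and those annotated as protein-coding summed to a mean of 3.37 TPM in WT and 3.56 in KO, so a sizeable share of its level was assigned to transcripts with retained introns.

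The genes most like Cd74 over the 24 libraries, by Pearson correlation of log2 values among all genes tested, were Pld4 (r = 0.921), Ctss (0.921), C1qc (0.905), C1qa (0.902) and C1qb (0.900). Ctss and the C1q chains are products of macrophages and dendritic cells. Within the 12 WT libraries r for these 5 was 0.887 to 0.958 and within the 12 KO libraries 0.769 to 0.808. The genes most like H2-K1 were H2-Q4 (r = 0.885), H2-Q7 (0.829), Epsti1 (0.827), Igtp (0.821) and Mzb1 (0.809), where H2-Q4 and H2-Q7 may share reads with it and Epsti1 and Igtp are interferon-induced. Among the members, the class II chains and Cd74 correlated with each other at 0.963 to 0.989 and H2-K1 with H2-D1 at 0.964. Ciita correlated with the class II genes at 0.823 to 0.859. B2m and H2-Ab1 had an r of 0.00653 over all libraries, but 0.840 within WT and 0.353 within KO. H2-K1 and H2-Ab1 had 0.368 over all, 0.947 within WT and 0.191 within KO. The points share their library, its scaling and its letter, and the genotypes lie apart, so these values are a description.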

How the data were processed

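The 24 kidney RNA libraries were described in 1 deposited table of TPM per transcript, which the authors made with kallisto 0.42.4 on mm10 (GRCm38), per the submitters' processing notes. TPM holds no depth: each library summed to 999999 to 1000001, so the precision of low values such as Ciita's is unknown. Of 88198 transcripts, 86119 were matched by Ensembl identifier to GENCODE M21 and summed per gene, and the 2079 unmatched carried 1.35% to 2.24% of a library's TPM.

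Gene sums were put on a log2(TPM + 0.1) scale, genes whose mean fell under 1 TPM were left out, and the remaining 12874 were fitted with limma 3.58.1 in R 4.3.3 (moderated tests with trend and robust settings, Benjamini-Hochberg adjustment over all genes tested, threshold 0.05). Fold changes on this scale understate changes of low genes. The genotype difference had ZT as a factor, and rhythms were 24-h cosine fits with 1 spread over both genotypes. The procedure was tested on simulated data. All 10 members are described. From each other list up to 4 genes past the threshold with the smallest p are named, 2 per direction where both exist, and the 5 genes most like Cd74 and H2-K1. The members and lists were chosen with earlier results of these data known. Alternatives were other pseudocounts, filters, scalings and models, a replicate block and leaving out each library. The split by letter and the ratios were chosen after seeing the data. The chromosome conformation tables were not used here.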

Additional observations from a re-analysis of the deposited data

How the results depend on the processing

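The fall of the 4 tested class II genes kept its direction and passed under all pseudocounts, filters, scalings and fits planned, and without each of the 24 libraries (4 lower and 1 higher in all 24). Their changes without 1 library ranged from -0.424 to -0.297 for Cd74, -0.399 to -0.293 for H2-Aa, -0.472 to -0.354 for H2-Ab1 and -0.383 to -0.272 for H2-Eb1. All these fits treated the libraries of a group as independent. In WT, B was above A at 6 of 6 times for each of these genes, so libraries of a letter may not be independent. The p-values may then be too small, and leaving out 1 library does not remove that letter difference. With the A libraries only, 0 members were lower and 2 higher (B2m and H2-K1), or 0 and 3 with the library labelled KO ZT4 A left out, and H2-T23 turned to 0.0454 and 0.0516. With the B libraries only, 0 were higher, and H2-K1, H2-D1 and Tap1 turned to -0.114, -0.158 and -0.106. Median-of-ratios scaling left 0 higher, gave 5 calls at single times and turned H2-K1, H2-D1 and Tap1 to -0.0761, -0.146 and -0.109. Removing mitochondrial genes left 0 higher, gave 2 rhythmic members in WT and turned H2-D1 and Tap1 to -0.0581 and -0.0232. These scalings moved the median change of all genes from 0.148 to -0.00173 and to 0.0852. The number rhythmic in WT was 2 with a fit of 1 genotype alone and 0 with ZT as a 6-level factor. Calls at single times were 1 with no filter. The cause was not tested for the letters or the model choices. Without 1 library, the count rhythmic in WT ranged from 0 to 2, in KO from 0 to 1, and calls at single times from 0 to 4, while H2-D1 ranged from -0.0338 to 0.0442 and H2-T23 from -0.0226 to 0.0184.

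The replicate letters did not pair the samples: B minus A deviations of WT and KO at the same ZT correlated above 0.1 at 1 of 6 times, though 14 of 15 pairs of WT times did. A replicate block over all libraries raised the calls at single times from 3 to 4 and changed no other count of members. With a replicate block within each genotype, 5 passed at single times, and 4 members were lower and 1 higher over all times. The letters are balanced over groups, so a block leaves each genotype change as it was and alters only its spread. These counts therefore cannot tell whether the class II difference depends on the letter. Without sequencing depth, counting error could not be separated from other spread, which bears most on Ciita.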
